A study of Macaca mulatta with 17 samples.

Results

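The genes described here are the 9 hemoglobin chain genes whose symbols are named in the array's probe descriptions: HBE1, HBG1, HBG2, HBB and HBD of the beta-type cluster and HBA2, HBZ, HBM and HBQ1 of the alpha-type cluster. They are 9 of 17212 distinct gene names on the array and are read by 11 of its 20217 probes, with 2 spots for each probe, and all 11 probes were kept. The genes were selected on the difference in HBB signal between the GD165 and GD100 arrays of this series, which was already known, so their levels by age are given as a description with no test, and tests were made only of BPA exposure and of chain differences by exposure.

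RNA came from the uterus of female rhesus macaque (Macaca mulatta) fetuses, taken from fundus to cervix, so it held myometrium, endometrium, vessels and any blood in them. Dams received 400 µg/kg/day of deuterated bisphenol A (BPA), an estrogenic plastics monomer, in a fruit treat, or the ethanol vehicle alone. Dosing ran from gestation day (GD) 50 to 100 for the GD100 groups, delivered by cesarean section, and from GD100 to delivery for the GD165 groups, born vaginally at GD165 to 168. Each of the 17 animals gave 1 single-color array: 5 GD100 control, 5 GD100 BPA-exposed, 4 GD165 control and 3 GD165 BPA-exposed. Both GD165 groups of the study had stillbirths, and it left the uteri of stillborn fetuses out of the arrays. Age, mode of delivery and dosing window went together, so they cannot be told apart. The GD100 and GD165 fetuses were different animals, and none of the GD165 fetuses was exposed before GD100.

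Hemoglobin is a tetramer of 2 alpha-type and 2 beta-type chains around heme, made in the red cell lineage. In primates the beta-type genes are used in turn during development, with epsilon-globin (HBE1) in the embryo, gamma-globin (HBG1 and HBG2) in the fetus and beta-globin (HBB) late in gestation and after birth, while alpha-globin (HBA2) is used throughout and zeta-globin (HBZ) is its embryonic counterpart. The replacement of gamma-globin by beta-globin is the fetal to adult hemoglobin switch. In the RefSeq gene table for the T2T-MMU8v2.0 assembly, HBE1, HBG2 and HBB lie in that order on 1 chromosome and HBZ, HBM, alpha-globin and HBQ1 in that order on another, and HBG1 and HBD are not listed there under those names. The scanner files number the probe positions on chromosomes of another species' layout while naming a rhesus build in their headers, so no positions are printed.

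Each probe is 60 bases long, and the letters decide which chains a signal can be assigned to. Below are the gamma-globin probes, written 5′ to 3′ in the sense of the mRNA, with capitals for the bases that differ where 2 of them cover the same stretch of the gene. HBG1 probe 2 lies in the coding sequence, HBG2 crosses from the coding sequence into 18 bases after the stop codon, and of HBG1 probe 1, which starts just before the stop codon, only the 23 bases that it shares with the HBG2 probe are printed.
HBG1 probe 2: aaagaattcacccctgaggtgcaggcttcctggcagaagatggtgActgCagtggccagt
HBG2: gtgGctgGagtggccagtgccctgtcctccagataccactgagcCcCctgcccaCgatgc
HBG1 probe 1, bases 1 to 23: actgagcTcActgcccaTgatgc

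HBG1 probe 2 and the HBG2 probe overlap by 18 bases and differ at 2 of them. HBG1 probe 1 and the HBG2 probe overlap by 23 bases and differ at 3. The array's own annotation assigns both HBG1 probes to transcripts of HBG1 and of HBG2. The 3 gamma-globin probes were therefore read as 3 measurements of gamma-globin, and the 2 genes were not separated. The HBG1 probes were designed on human transcripts and the HBG2 probe on a macaque cDNA clone.

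The epsilon-globin probe lies in the coding sequence and was designed on the human transcript. It is shown whole because HBE1 had the largest age difference among the chains that were lower at GD165 in exposed fetuses.
HBE1: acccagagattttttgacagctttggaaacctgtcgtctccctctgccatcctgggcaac

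The probes for HBB, HBD and HBA2 end at the 3′ end of their transcripts. Their last 30 bases are shown with the polyadenylation signal in capitals. Position by position, the ends printed for HBB and HBD were the same at 8 of 30 positions. The signal starts at base 37 of the HBB probe and at base 41 of the HBD probe. The count was made without lining up the signals, so it does not measure how alike the 2 ends are.
HBB, bases 31 to 60: ctgcctAATAAAaaacatttattttcattg
HBD, bases 31 to 60: ggcttcacctAATAAAgaacgttcagttca
HBA2, bases 31 to 60: cccttcctggtctttgAATAAAgtctgagt

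Both HBA2 probes carry the same 60 bases, so they are repeat spots of 1 sequence, and they differed by a mean of 0.043 (SD 0.048, n = 17 arrays) on the log2 scale. HBG1 probe 2 and the HBG2 probe differed by a mean of -0.28 (SD 0.079, n = 17). HBG1 probe 1 and the HBG2 probe differed by 0.017 (SD 0.21, n = 17).

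The arrays were of like quality. Spots well above background made up 83.8 to 89.0% of each array, and 8 to 22 spots per array were saturated. Levels are log2 signals after each array's 75th percentile was set to the common mean of 12.62. All globin probes but that of HBD were well above background on all 17 arrays. The HBG2 probe was saturated on 7 of 17 arrays (2 GD100 control, 4 GD100 BPA-exposed and 1 GD165 control), each HBA2 probe on 2, and HBG1 probe 2 on 1, so a true level there may lie above the one given. HBB, HBE1, HBZ, HBM, HBQ1 and HBG1 probe 1 were saturated on none. As a check of the tissue, HOXA10, HOXA11, ESR1, WNT7A, EMX2, PAX2, DES and ACTG2, known from the uterus and its smooth muscle, were well above background on all 17 arrays, and PGR, the progesterone receptor, on none.

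Beta-globin was the chain with the largest difference by age in controls. In the GD100 controls HBB lay at 13.18, 11.80, 11.29, 11.18 and 12.91. In the GD165 controls it lay at 18.01, 19.23, 17.74 and 19.15. Every GD165 control was above every GD100 control, and the lowest late value was 17.74 against a highest early value of 13.18. The means were 12.07 (SD 0.92, n = 5) and 18.53 (SD 0.77, n = 4), a difference of 6.46 (SE 0.74) on the log2 scale, or 87.9-fold. On the 2 slides that held a control of each age, the difference was 7.93 and 5.10. In a bulk sample the number of red cells and the globin RNA per cell cannot be told apart.

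The exposed fetuses, which are other animals, gave the same order. HBB lay at 11.70, 13.72, 15.34, 14.32 and 11.29 at GD100 and at 17.47, 17.53 and 18.82 at GD165. Again the ages did not overlap, and the difference was 4.67 (SE 0.81), or 25.5-fold. On the 1 slide with an exposed fetus of each age it was 7.54. The GD100 exposed group spread more widely, with an SD of 1.73 (n = 5) against 0.92 in the GD100 controls. Across the 4 groups the order of mean HBB was GD165 control, GD165 exposed, GD100 exposed and GD100 control, and groups of the same age overlapped.

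**Figure D1:**
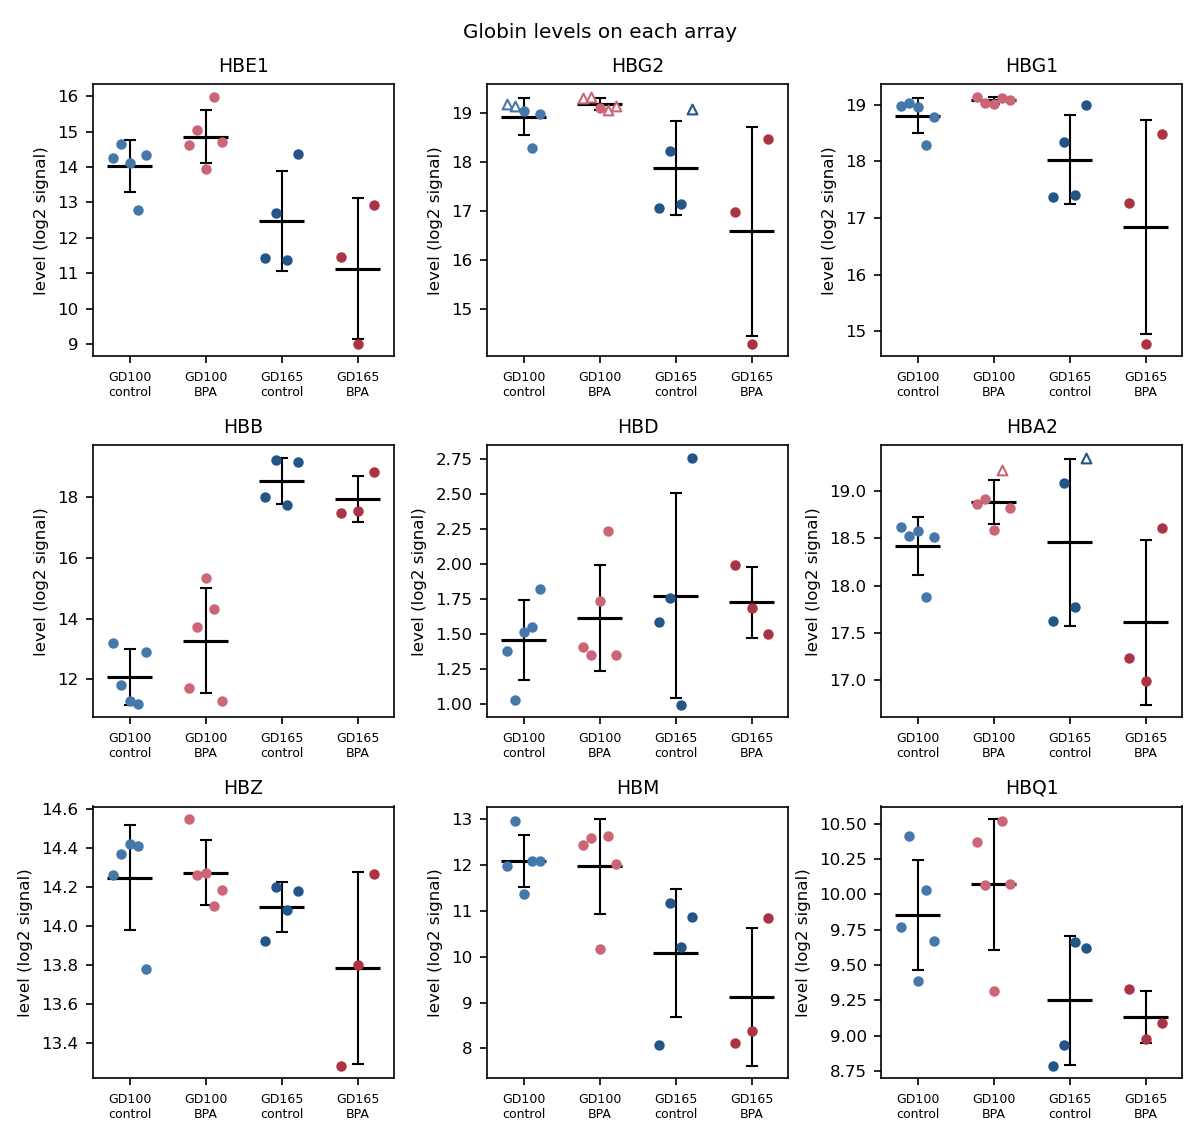
Levels (log2 signal, y axis) of the 9 globin genes on each of the 17 arrays by group (x axis), with probe 1 shown for HBG1 and HBA2. Points are animals, open triangles are arrays on which the probe was saturated, and lines with bars are the mean and SD. HBB at GD165 lies above 17.4 on all 7 arrays and below 15.4 on all 10 GD100 arrays, while HBD lies at or below 2.76 on every array. Each panel has its own y axis, so heights cannot be compared between panels.

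Gamma-globin stood high at GD100 and was lower on most GD165 arrays. The HBG2 probe lay at 19.18, 19.12, 19.04, 18.27 and 18.97 in GD100 controls and at 17.06, 18.22, 17.15 and 19.08 in GD165 controls. GD165 control replicate 6, which was saturated, lay within the GD100 range, so the ages overlapped. The difference was -1.04 (SE 0.61) with the HBG2 probe, -0.78 (SE 0.53) with HBG1 probe 1 and -1.02 (SE 0.61) with HBG1 probe 2. Without that array the HBG2 difference was -1.44. Within the 2 slides it was -0.82 and -1.91.

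In the exposed fetuses the HBG2 probe lay at 19.29, 19.32, 19.10, 19.05 and 19.14 at GD100 and at 16.98, 14.29 and 18.47 at GD165. Here all 3 gamma-globin probes were lower on every GD165 array than on every GD100 array. The differences were -2.60 (SE 0.66), -2.24 (SE 0.58) and -2.63 (SE 0.66) for HBG2, HBG1 probe 1 and HBG1 probe 2. GD165 exposed replicate 4 held the lowest value of each of the 3 probes, and without it the HBG2 difference was -1.45. The early levels of HBG2 are saturated on 4 of 5 exposed arrays, so the difference may be understated.

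Epsilon-globin was lower at GD165 as well. HBE1 lay at 14.24, 14.64, 14.11, 12.78 and 14.34 in GD100 controls and at 11.44, 12.70, 11.39 and 14.37 in GD165 controls. It lay at 14.61, 15.05, 13.94, 15.98 and 14.69 in the GD100 exposed fetuses and at 11.47, 9.01 and 12.93 in the GD165 exposed fetuses. The ages overlapped in controls, through replicate 6 at GD165 and replicate 4 at GD100, and did not overlap in exposed fetuses. The difference was -1.55 (SE 0.74) in controls and -3.72 (SE 0.80) in exposed fetuses, and without GD165 exposed replicate 4 the latter was -2.66. The probe of this embryonic chain was well above background in every uterus at both ages. Its bases were compared only with those of the other globin probes. Whether transcripts of other chains add to its signal was not tested.

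Delta-globin was not well above background on any of the 17 arrays. Its levels ran from 0.99 to 2.76, and no fold is given. The lowest level that counted as well above background on an array was 3.31 to 4.13.

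Alpha-globin, the shared partner of all these chains, did not follow beta-globin in controls. HBA2 lay at 18.62, 18.53, 18.58, 17.88 and 18.51 at GD100 and at 17.62, 19.09, 17.77 and 19.36 at GD165, where it fell into a lower and a higher pair. The control difference was 0.034 (SE 0.37). In exposed fetuses it lay at 18.87, 18.92, 18.59, 19.23 and 18.82 at GD100 and at 17.23, 16.99 and 18.61 at GD165. The exposed difference was -1.28 (SE 0.40), and the ages overlapped through GD165 replicate 5, at 18.61 against an early low of 18.59.

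The other alpha-type genes did not all behave alike. HBM, the mu chain, known as a minor alpha-type transcript of red cell precursors, lay at 11.36 to 12.95 in GD100 controls and at 8.06 to 11.16 in GD165 controls, so the ages did not overlap. Its difference was -2.01 (SE 0.69) in controls and -2.85 (SE 0.75) in exposed fetuses, where GD100 replicate 3, at 10.16, overlapped GD165 replicate 5, at 10.84. Within slides HBM differed by -0.20 and -4.02 in controls. HBQ1, the theta chain, whose product has not been tied to a hemoglobin, differed by -0.60 (SE 0.26) and -0.94 (SE 0.28). HBZ varied least, from 13.28 to 14.55 over all 17 arrays, with differences of -0.15 (SE 0.18) and -0.49 (SE 0.19). Its probe is the richest in G and C of the 11, at 78.3%, against 31.7% for HBB. Whether other transcripts add to the HBZ signal was not tested.

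Across the 11 probes, 1 (HBB) was higher at GD165 with no overlap in controls, beside 9.51% of all probes, and 1 (HBM) was lower, beside 9.90%. In exposed fetuses 1 (HBB) was higher, beside 11.7% of all probes, and 4 (the 3 gamma-globin probes and HBE1) were lower, beside 15.4%. The ages chose these genes, so nothing is read from these counts.

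Differences between 2 chains on the same array are the same under any scaling that adds 1 value to a whole array, though not under quantile normalization. They are log2 differences between 2 probes with their own binding strengths, so they are compared between arrays and never read as amounts of RNA. HBB minus HBG2 was -6.00, -7.32, -7.74, -7.09 and -6.07 in GD100 controls and 0.95, 1.01, 0.59 and 0.07 in GD165 controls. The shift between the means was 7.50 (SE 0.41). In exposed fetuses the values were -7.59, -5.60, -3.76, -4.73 and -7.85 at GD100 and 0.49, 3.24 and 0.35 at GD165, a shift of 7.27 (SE 1.23). The HBG2 probe was saturated on GD165 control replicate 6 and on 6 of the 10 GD100 arrays, so these values are not exact there. With HBG1 probe 1, saturated on no array, HBB minus gamma-globin lay between -7.79 and -3.67 on the GD100 arrays and between 0.15 and 2.75 on the GD165 arrays. Its shift was 7.24 (SE 0.41) in controls and 6.91 (SE 1.14) in exposed fetuses, without overlap in either. HBG1 probe 1 itself lay at 19.01 to 19.14 on the GD100 exposed arrays, and HBG2 was saturated at 19.05 on GD100 exposed replicate 4. Values of HBG1 probe 1 near that level may also be too low, which was not tested.

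HBB minus HBA2 drew the GD165 arrays closer together than HBB alone did. At GD165 the 4 controls lay at 0.39, 0.14, -0.03 and -0.21 (SD 0.26) and the 3 exposed fetuses at 0.25, 0.54 and 0.21 (SD 0.18), whereas the SDs of HBB itself were 0.77 and 0.76. In GD100 controls the value was -6.35 (SD 0.79, n = 5). HBG2 minus HBA2 was 0.49 (SD 0.082, n = 5) in GD100 controls and -0.58 (SD 0.24, n = 4) in GD165 controls, without overlap. GD165 exposed replicate 4 lay at -2.70 on this difference, against -0.24 and -0.14 in the other exposed fetuses of that age.

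HBE1 minus HBA2 moved from -4.40 (SD 0.45, n = 5) to -5.98 (SD 0.67, n = 4) in controls, where GD165 replicate 6, at -4.99, overlapped GD100 replicate 4, at -5.11. In exposed fetuses it moved from -4.03 (SD 0.52, n = 5) to -6.47 (SD 1.30, n = 3) without overlap. HBM minus HBA2 moved from -6.34 (SD 0.66, n = 5) to -8.38 (SD 0.87, n = 4) in controls. In exposed fetuses HBG2 minus HBA2 moved by -1.32 (SE 0.84) and HBM minus HBA2 by -1.57 (SE 0.54), both with overlap, and 2 of the 3 GD165 values of the former lay beside the GD100 low of -0.18. These shifts are descriptions, since the age values chose the genes.

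**Figure D2:**
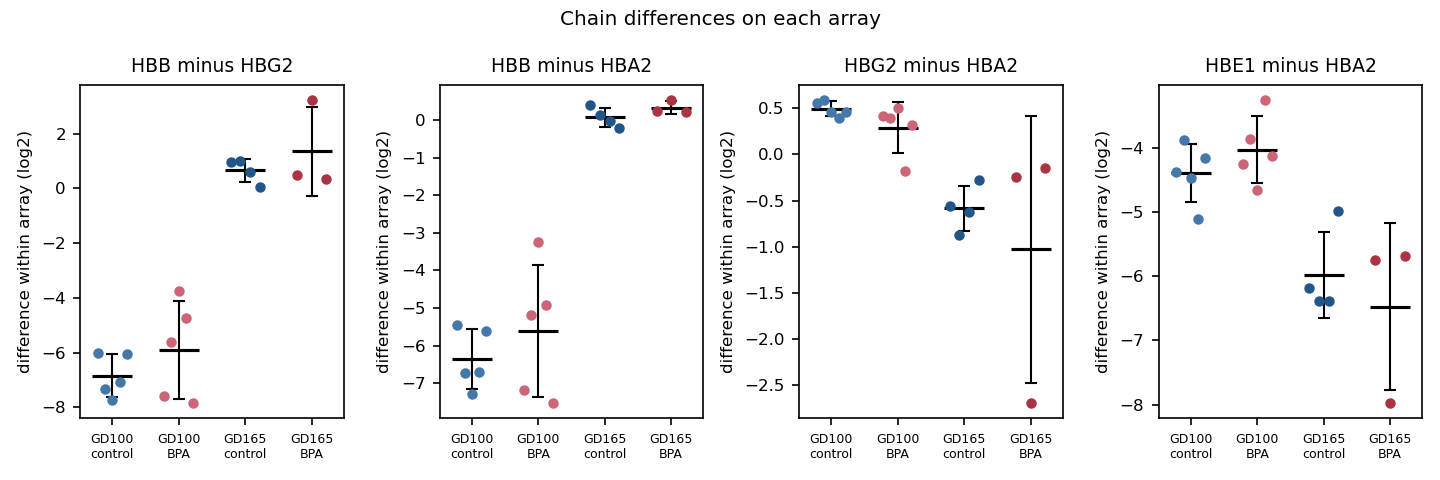
Within-array log2 differences between 2 globin probes (y axis) on each array by group (x axis), with mean and SD as lines and bars. HBB minus HBG2 is higher on all 7 GD165 arrays than on all 10 GD100 arrays, and GD165 BPA-exposed replicate 4 lies at 3.24. HBG2 was saturated on 7 arrays and HBA2 on 2, which the points do not mark, so the values there are not exact.

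BPA exposure was tested at each age, which asks whether fetuses of exposed dams carried other levels of any chain. At GD100 no globin probe passed an adjusted p of 0.01 in limma, beside 0% of all 20217 probes, and none of the 11 had an unadjusted p under 0.05, against 767 of all probes. With only the GD100 groups in the limma fit, 3 of the 11 had an unadjusted p under 0.05, beside 900 of all probes, and none passed. That count was 1 without exposed replicate 1 and 1 without exposed replicate 5, beside 588 and 897 of all probes. Exposed and control groups overlapped for all 11 probes, where 0.381% of all probes were higher in every exposed fetus and 0.401% lower. HBB was 1.20 (SE 0.70, 95% interval -0.29 to 2.69) higher in exposed fetuses with a limma adjusted p of 0.99993. Exposed replicates 2, 3 and 4 held the 3 highest GD100 values, and replicates 1 and 5 lay within the control range. Without replicate 3 the difference was 0.68. On the 3 slides that held both groups it was 3.16, -0.51 and 0.40.

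The other chains differed less at GD100, in values that moved with single arrays and with the slide. HBE1 was 0.83 (SE 0.69) higher, HBA2 0.46 (SE 0.35), HBG2 0.26 (SE 0.57), HBG1 0.27 to 0.39 and HBQ1 0.22 (SE 0.24), HBZ differed by 0.025 (SE 0.17), and HBM by -0.12 (SE 0.65). These SEs rest on a spread shared by all 4 groups, while the SD of HBG2 was 0.12 in GD100 exposed and 2.12 in GD165 exposed fetuses. With only the GD100 groups in the fit, the SEs were 0.42 for HBE1, 0.16 for HBA2 and 0.16 for HBG2, and that of HBB was 0.79. Without control replicate 4 HBG2 differed by 0.099 and HBE1 by 0.52, and without exposed replicate 4 HBE1 differed by 0.55. With slide as a fixed block HBA2 differed by 0.063, HBG2 by -0.17 and HBE1 by -0.046. Of the 11 probes 10 had a difference above 0, with a median of 0.27 beside 0.011 over all probes. The probes share arrays, 3 of them share a target, the HBA2 probes are 1 sequence and HBD was not well above background, so they are not separate evidence. With HBG1 probe 1 the control values ran from 18.28 to 19.04 and the exposed values from 19.01 to 19.14. HBG2 was saturated on 4 of 5 exposed and 2 of 5 control arrays at this age, so its difference is not exact.

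At GD165 no globin probe passed either, beside 0% of all probes, and none of the 11 had an unadjusted p under 0.05, against 1740 of all probes. The groups again overlapped for all 11 probes, where 2.07% of all probes were higher in every exposed fetus and 5.24% lower. The differences of the 10 probes well above background lay below 0, the HBA2 sequence being counted with both its probes, and the median of all 11 with HBD was -0.85 beside -0.025 over all probes. HBG2 differed by -1.30 (SE 0.69, 95% interval -2.77 to 0.18, limma adjusted p 0.625) and HBE1 by -1.34 (SE 0.84, adjusted p 0.690). HBA2 differed by -0.85 (SE 0.42, 95% interval -1.75 to 0.052, adjusted p 0.595) and HBB by -0.59 (SE 0.84, adjusted p 0.906). On the 1 slide with both groups these values were -1.43, -1.20, -0.51 and -0.51. With only the GD165 groups in the fit, the SEs were 0.99 for HBG2, 1.07 for HBE1, 0.57 for HBA2 and 0.50 for HBB.

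The GD165 differences moved with single arrays in both directions. Without exposed replicate 4 the difference was -0.15 for HBG2, -0.27 for HBE1, -0.54 for HBA2 and -0.38 for HBB. Without GD165 control replicate 6, which held the highest gamma-, epsilon- and alpha-globin levels of its group, the same differences were -0.89, -0.71, -0.55 and -0.38. Without exposed replicate 5 they were -2.24, -2.23, -1.35 and -1.03, and 8 of the 11 probes had an unadjusted p under 0.05, beside 2171 of all 20217 probes. That count was 4 without control replicate 1 and 2 without control replicate 5, beside 2088 and 1615 of all probes, and no globin probe passed the adjusted threshold in limma in any of these fits. HBB differed by -0.35 without exposed replicate 3 and by -0.36 without control replicate 3.

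**Figure D3:**
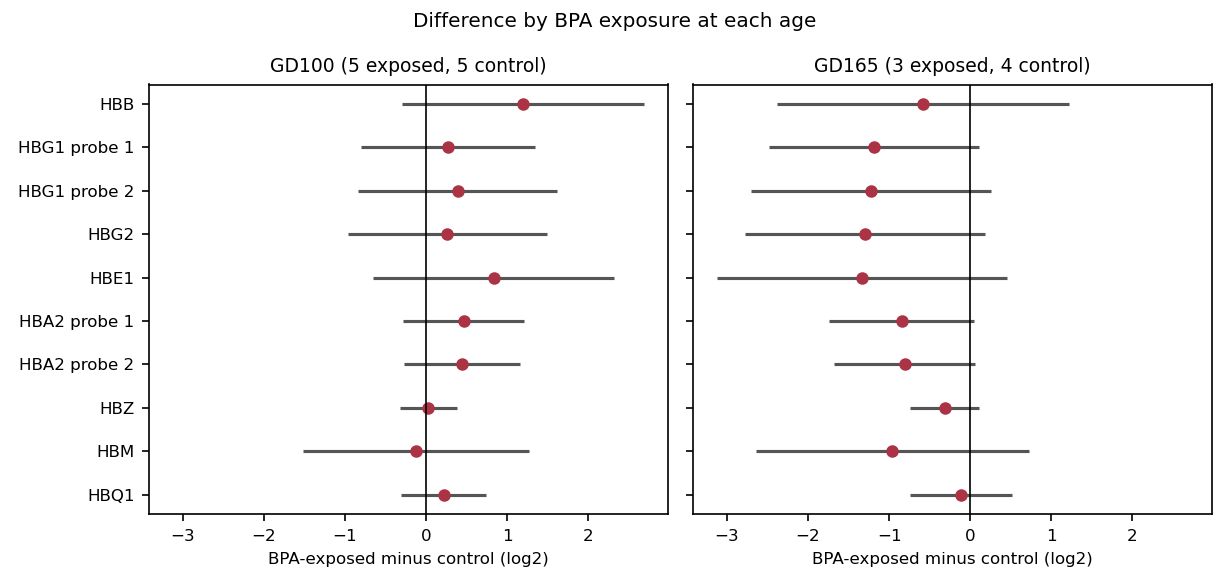
Difference in level between BPA-exposed and control fetuses (log2, x axis) for the 10 globin probes well above background (y axis) at GD100 and GD165, with limma 95% intervals as lines. The intervals use a spread shared by all 4 groups. Every interval spans 0, and the points lie mostly above 0 at GD100 and below 0 at GD165.

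Whether the age difference itself depended on exposure was tested as an interaction. Each age had its own dosing window, so the interaction cannot separate age from dosing window. No globin probe passed, beside 0% of all probes, and the 2 HBA2 probes were the only ones of the 11 with an unadjusted p under 0.05, against 1584 of all probes. The interaction of HBA2 probe 1 was -1.31 (SE 0.55, 95% interval -2.48 to -0.14, limma adjusted p 0.593). The interaction was -1.79 (SE 1.10, adjusted p 0.727) for HBB, -1.56 (SE 0.90, adjusted p 0.709) for HBG2 and -2.17 (SE 1.09, adjusted p 0.652) for HBE1. Without GD165 exposed replicate 4 it was -0.41 for HBG2, -1.11 for HBE1 and -0.9998 for HBA2. Without GD165 exposed replicate 5 it was -2.50, -3.06 and -1.81, with 7 of the 11 probes at an unadjusted p under 0.05, beside 2045 of all probes, and none of the 11 past the adjusted threshold in limma.

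In each age group 10 chain differences were compared by exposure with two-sided exact permutation tests and adjusted over the 10, which include HBD minus HBA2 although HBD was not well above background. With 5 against 5 arrays the smallest p possible is 0.00794, and with 3 against 4 it is 0.0571, so the GD165 comparison could not reach 0.05. At GD100 HBB minus HBG2 was higher by 0.94 (SE 0.87) in exposed fetuses, with an exact p of 0.325 and an adjusted p of 0.407. HBG1 minus HBA2 had the smallest p of the 10, with a difference of -0.19 (SE 0.097), an exact p of 0.0873 and an adjusted p of 0.370. HBZ minus HBA2 followed that of HBG2 with a difference of -0.44 (SE 0.25) and an exact p of 0.111. None passed. At GD100 HBG2 was saturated on 4 of 5 exposed and 2 of 5 control arrays, and HBA2 probe 1 on 1 exposed array. HBG1 probe 1 may also read too low at such levels, which was not tested. The gamma-globin differences by exposure may therefore not be exact.

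At GD165 the exposed minus control difference was 0.71 (SE 0.96) for HBB minus HBG2, with an exact p of 0.600, and 0.26 (SE 0.17) for HBB minus HBA2, with an exact p of 0.200. All adjusted p values lay between 0.857 and 0.886 in that family of exact permutation tests. Without exposed replicate 4 the HBB minus HBG2 difference was -0.23, so its direction rested on that fetus, and without exposed replicate 3 or 5 it was 1.14 or 1.21.

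The rest of the red cell program was read from 3 lists: membrane and cytoskeleton, heme synthesis and red cell enzymes, and erythroid transcription factors, with 47 genes matched on the array. Of these 16 were higher and 31 lower at GD165 in controls, with a median of -0.13 beside 0.0046 over all probes. In exposed fetuses 12 were higher and 35 lower, with a median of -0.38 beside -0.047. The level of a list, taken as the mean over its genes after each gene was centered over the 17 arrays, ran from -0.14 to 0.26 in GD100 controls and from -0.14 to 0.15 in GD165 controls for the membrane list. For the heme list they ran from 0.089 to 0.32 and from -0.32 to 0.089. For the transcription factors they ran from -0.32 to 0.37 and from -0.55 to 0.18. In GD165 exposed fetuses the 3 lists ran from -0.45 to -0.081, from -0.59 to -0.35 and from -0.59 to -0.30. Their part in the globin levels was not tested.

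ALAS2, the first enzyme of heme synthesis in red cells, tracked alpha-globin. It lay at 12.22, 11.99, 11.74, 10.56 and 12.06 in GD100 controls and at 10.61, 12.34, 10.25 and 12.97 in GD165 controls. The GD165 controls split into the same lower and higher pair as HBA2. Its age difference was -0.17 (SE 0.70) in controls and -2.54 (SE 0.76) in exposed fetuses, where GD165 replicate 4 lay at 8.35. KLF1, an erythroid transcription factor that acts on the HBB promoter, differed by -1.45 (SE 0.43) and -2.17 (SE 0.47). It lay at 7.37 to 8.44 in GD100 controls and at 5.07 to 7.21 in GD165 controls, without overlap.

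SLC4A1, the red cell anion exchanger, differed by -0.051 (SE 0.55) in controls and -2.43 (SE 0.60) in exposed fetuses. CA2, a carbonic anhydrase also made by other cells, differed by 0.49 (SE 0.21) and 0.048 (SE 0.23). CA1, the carbonic anhydrase of mature red cells, was well above background on 0 of 17 arrays. AHSP, the alpha-globin chaperone, had no probe matched by name.

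Of the regulators known from the fetal to adult switch 13 of 20 were matched, and BCL11A, a repressor of gamma-globin, had levels of 9.15 to 9.55 in GD165 controls and 9.22 to 9.71 in GD100 controls. Its age difference was -0.085 (SE 0.15) in controls and -0.059 (SE 0.17) in exposed fetuses. IGF2BP1, an RNA-binding protein of the fetal program, was well above background on all 10 GD100 arrays and on none of the 7 at GD165. It lay at 5.05, 5.12, 5.05, 4.93 and 4.44 in GD100 controls. It was at least 2.35-fold lower at GD165 in controls and at least 3.26-fold lower in exposed fetuses, taking the lowest level well above background on each GD165 array as the bound. BCL11A and IGF2BP1 are also made outside red cells, and the array cannot say in which cells of the uterus they were read. LIN28B, IGF2BP3 and ZBTB7A had no probe matched by name.

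**Figure D4:**
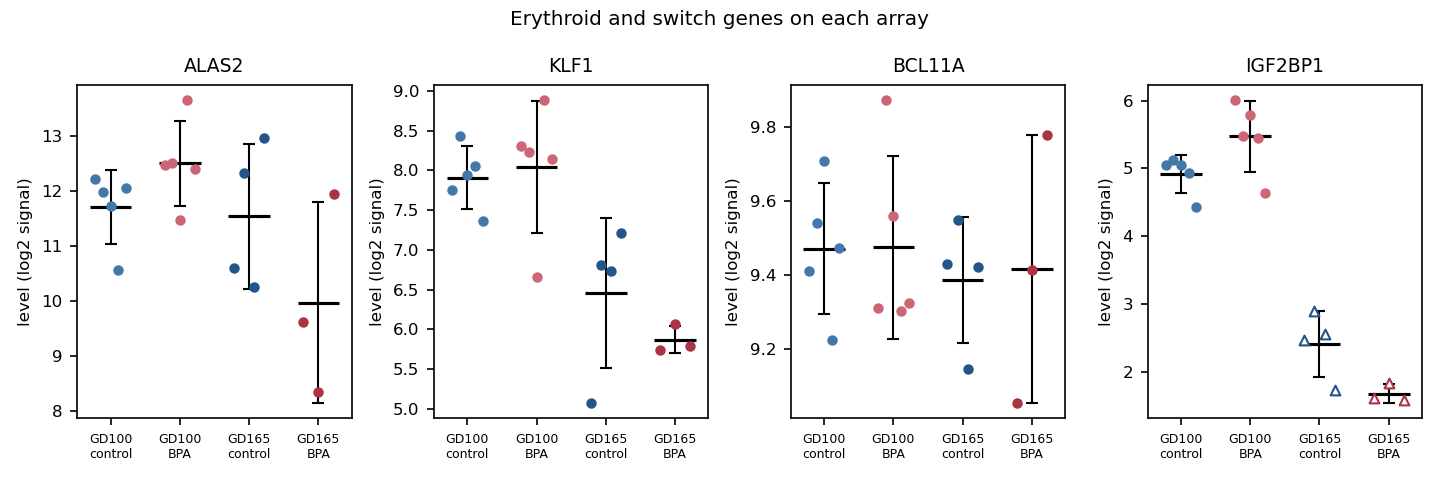
Levels (log2 signal, y axis) of ALAS2, KLF1, BCL11A and IGF2BP1 on each array by group (x axis), with open triangles for arrays on which the probe was not well above background and lines with bars for the mean and SD. IGF2BP1 is not well above background on any of the 7 GD165 arrays, while BCL11A spans 9.06 to 9.87 over all arrays.

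By exposure none of the 47 erythroid genes passed an adjusted p of 0.01 in limma at GD100 or at GD165, and 0 and 4 of them had an unadjusted p under 0.05, beside 767 and 1740 of all 20217 probes. At GD100 36 were above 0 and 11 below, with a median of 0.12 beside 0.011 over all probes, of which 53.3% were above 0. At GD165 14 were above 0 and 33 below, with a median of -0.13 beside -0.025 over all probes, of which 44.7% were above 0. That list median was -0.035 with quantile normalization, beside 0.013 over all probes. With no scaling it was 0.034, beside 0.14 over all probes. With the main scaling, most of this list and most globin probes thus lay on the same side of 0 at each age. SLC4A1 and ALAS2 at GD165 differed by -1.78 (adjusted p 0.487) and -1.57 (adjusted p 0.599). No gene of the switch, leukocyte, platelet, endothelial or uterine lists passed either.

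The lists of other cells were read by age with no test, beside medians over all probes of 0.0046 in controls and -0.047 in exposed fetuses. Of 18 leukocyte genes 16 were higher at GD165 in controls (median 0.62) and 12 in exposed fetuses (median 0.26). Of 8 endothelial genes 7 were higher in each (medians 0.36 and 0.52), and of 8 platelet genes 1 and 2 (medians -0.17 and -0.37). The leukocyte level ran from -0.79 to 0.077 in GD100 controls and from 0.17 to 0.81 in GD165 controls, and their part in the globin levels was not tested.

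The genes whose levels followed each chain most closely within groups were found over the 17 arrays, after each level was centered on its group mean, among probes well above background on every array. For HBA2 they were ALAS2 (Pearson r 0.95), FERD3L (0.93), MGC46534 (0.90), C6orf81 (0.89) and HBLD2 (0.87). For gamma-globin, read by HBG1 probe 1, they were EVI2A (0.87), ALAS2 (0.84), OPRL1 (0.84), C18orf24 (0.84) and RSBN1L (0.83), and without GD165 exposed replicate 4 the value for C18orf24 was 0.56 and that for ALAS2 0.89. For HBB they were PRO1853 (0.85), HUS1 (0.79), CCL2 (0.77), NMUR2 (0.74) and MATN1 (0.74). ALAS2 was in the lists of HBA2 and of gamma-globin and not in that of HBB. These are descriptions of likeness among all named probes, with no test.

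Among the chains themselves the same measure was 0.82 between HBG2 and HBA2 probe 1 and 0.94 without GD165 exposed replicate 4. It was 0.89 between HBG2 and HBE1 and 0.74 between HBA2 and HBM. HBB stood at 0.32 with HBG2, 0.36 with HBE1 and 0.42 with HBA2. These values pool the 4 groups, and HBB spread most in GD100 exposed fetuses (SD 1.73). At GD165 HBB and HBA2 moved more closely together. There HBB minus HBA2 had an SD of 0.26 in controls and 0.18 in exposed fetuses, against 0.77 and 0.76 for HBB alone. HBZ stood at 0.40 with HBA2 and at -0.059 with HBB.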

How the data were processed

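Total RNA from 17 fetal uteri was labeled with Cy3 and hybridized to single-color Agilent rhesus macaque arrays. The authors deposited the scanner output of each array, as intensity values from Agilent Feature Extraction 9.5 (background-subtracted processed signal), and a table of the same intensity values, in which 711467 of 711467 values were identical (tolerance 0). Control spots and outlier spots were left out, the 2 spots of a probe were averaged, and log2 signals were set to a common 75th percentile. The number of arrays limits the precision. Levels were compared with limma 3.58.1 in R 4.3.3, over all 20217 probes and all 4 groups, with Benjamini-Hochberg adjustment and the threshold of 0.01 of the study's methods. The error-weighted ANOVA of the methods cannot be repeated outside its software. Chain differences used exact permutation tests over arrays (Python 3.11.15 with scipy 1.17.1), adjusted over 10 and judged at 0.05. For a gene with several probes the one with the highest mean signal was used. The fit and the permutation test were tested on simulated data.

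The members and gene lists were chosen with earlier results of these data known. All 9 globin genes are named, and of the lists those past the threshold and otherwise ALAS2, AHSP, SLC4A1, KLF1, BCL11A, LIN28B, IGF2BP1, IGF2BP3, ZBTB7A, CA1 and CA2, with 1 further gene of this rule not reported here. List genes were read by the probe with the highest mean, and the likeness measure took the 5 best named genes. The 6 slides were tried as a block. Replicates are separate fetuses by the study's methods.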

Additional observations from a re-analysis of the deposited data

Results flagged for a closer look

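In groups of 4 or 5 arrays, an array was picked out when its gap to the nearest other exceeded Dixon's 95% limit. This held for 9 of 63 groups of probe levels and chain differences, where chance gives about 1 in 20, and the 63 are not independent. GD100 control replicate 4 was low for HBG2 at 18.27 (others 18.97 to 19.18), for HBE1 at 12.78 (others 14.11 to 14.64) and for the HBA2 probes at 17.88 and 17.84 (others 18.51 to 18.62 and 18.46 to 18.57). GD100 control replicate 5 was low for HBZ at 13.78 (others 14.26 to 14.42).

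GD100 exposed replicate 3, which held the highest HBB of its group, was low for HBM at 10.16 (others 12.01 to 12.63) and for HBM minus HBA2 at -8.43 (others -6.81 to -6.34). GD100 exposed replicate 4 was low for HBG2 minus HBA2 at -0.18 (others 0.32 to 0.51), and both probes were saturated on that array. GD165 control replicate 6 was high for HBE1 minus HBA2 at -4.99 (others -6.38 to -6.18), with HBA2 saturated. The GD165 exposed group has 3 arrays and was not examined this way.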

How the results depend on the processing

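No globin probe passed the test of exposure under normexp correction, scaling to the median, by quantiles or none, a filter on dim probes, outlier spots kept, a trend and robust prior, error-model weights, fewer groups, slide as a fixed or random block, the replicate block, a threshold of 0.05 or with each array left out, and none passed that of the interaction under the same settings but fewer groups, which was not run for it. The erythroid genes were run under normexp correction, the 3 scalings, the replicate block, the threshold of 0.05 and each array left out, and none passed. Chain differences were run under normexp correction, quantiles, outlier spots kept, the mean over a gene's probes, slide as a fixed block, the replicate block and each array left out. None passed, which at GD165 says nothing of stability, since the exact test cannot reach 0.05 there. With slide as a fixed block the exposure difference at GD100 turned to -0.17 for HBG2 and -0.046 for HBE1, and the cause was not tested. Leaving out 1 array at a time, HBB minus HBG2 by exposure at GD165 ran from -0.23 to 1.21, the former without exposed replicate 4. The HBB age difference ran from 6.23 to 6.74 in controls and from 4.18 to 5.19 in exposed fetuses when 1 array was left out, and from 6.26 to 6.85 and from 4.61 to 5.41 under the other alternatives. That of HBA2 in exposed fetuses was -0.61 with slide as a fixed block, and in controls it ran from -0.33 to 0.12. With no scaling the median of all probes moved to 0.13 for age in exposed fetuses, 0.14 for exposure at GD165 and 0.16 for the interaction.

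Deviations from the group means of same-numbered animals correlated at -0.17 to 0.12. They were not set beside those of animals with different numbers, so they cannot settle whether the numbers pair the animals. With the replicate number as a block the HBB age difference was 6.26 in controls and 4.61 in exposed fetuses, the exposure difference at GD165 was -0.52 for HBG2, and the counts stayed at 0. Saturation of HBG2 and HBA2 limits how far high levels can be told apart, and signal under background leaves HBD unmeasured.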
